A study of Oncorhynchus masou masou with 2 samples.

Results

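The contigs described here are 200 abundant, long transcript fragments of the masu salmon (Oncorhynchus masou masou) granulosa layer whose share of reads differed by less than 2-fold between a control and a forskolin library. They are 200 of the 97636 contigs (assembled stretches of transcript) that have a read count, which can be 0, given for both libraries. They were chosen on the measured values themselves: a length of at least 500 bases, a forskolin over control ratio above 0.5 and below 2, and then the highest sum of the RPM values (reads per 1000000 counted reads) of both libraries. Their being abundant and within 2-fold is therefore fixed by the choice and is no result.

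The series holds 2 mRNA sequencing libraries, made from total RNA of granulosa layers. For the control, the labels list no agent, and the other library is labelled forskolin. Each group is 1 library, so differences are given without a replicate check and without p-values. Dose, incubation time, and how many fish or follicles were used were not given in the sources used here.

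Granulosa cells line the inside of the ovarian follicle, next to the oocyte. In salmonids they respond to gonadotropin through cyclic AMP and make the progestin that induces oocyte maturation. Forskolin activates adenylyl cyclase directly, and so raises cyclic AMP without the hormone or its receptor. In animal cells generally, the abundant messenger RNAs include those for ribosomal proteins, translation factors and the cytoskeleton. Which of the contigs, if any, carry such genes is not known here, since the files give each contig only a class and a number. Such names hold no gene name, so 0 of the 200 matched the gene table of the masu salmon assembly, as did 0 of all contigs. This says nothing about which genes they carry, and no granulosa, theca, oocyte or blood marker could be looked up.

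Counted reads numbered 4746085 in the control and 4327458 in the forskolin library. A lower limit of 3 counts was taken, which is 0.632 RPM in the control and 0.693 RPM in the forskolin library. A contig with an expected count of up to about that limit can still be without any read. The smallest count of any member in either library was 636, so no member lies near that limit. RPM is a share of a library: an equal RPM does not show an equal number of molecules per cell, and fewer cells of a type and less RNA per cell cannot be told apart.

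As follows from a choice by highest RPM, the members were a small part of the contig list and a larger part of the reads. They made up 0.205% of contigs and 1.74% of the summed contig length. They took 8.72% of control reads (exact 95% binomial interval 8.70 to 8.75%) and 8.28% of forskolin reads (8.26 to 8.31%). Their summed RPM stood at 0.950 of the control level in the forskolin library (0.945 to 0.954). This value is relative to library totals and comes from ratios that the rule bounded. Its log2 was -0.075, while the TMM and upper-quartile scalings described below moved log2 ratios up by 0.20 and 0.11. Its side of equality thus depended on the scaling. With no limit on the ratio in the choice, the chosen contigs took 9.38% of control and 11.1% of forskolin reads. The intervals here and below cover counting error only, since each group is 1 library. PCR copies of 1 molecule cannot be told apart in these reads, so the intervals may be too narrow even for that error.

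Being within 2-fold was the common state of long contigs. Of all 97636 contigs, 58.0% lay above 0.5 and below 2, with many very low counts among them. Of the 1931 contigs of 500 bases or more, 1437 did (74.4%). Of the 265 long contigs whose summed RPM was at least 427, the lowest of any member, the 200 members made up 75.5%, beside 41 higher contigs (ratio of 2 or more) and 24 lower ones (ratio of 0.5 or less). Among the 25 long contigs with the highest summed RPM, 14 were members, 10 were higher by this measure and 1 was lower. Among the 100 highest, 75 were members, 19 higher and 6 lower. Among all 1931 long contigs, 727 (37.6%) had a ratio above 1. A high value in either library raises a contig's rank by the sum, so these counts depend on that way of ranking.

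**Figure D1:**
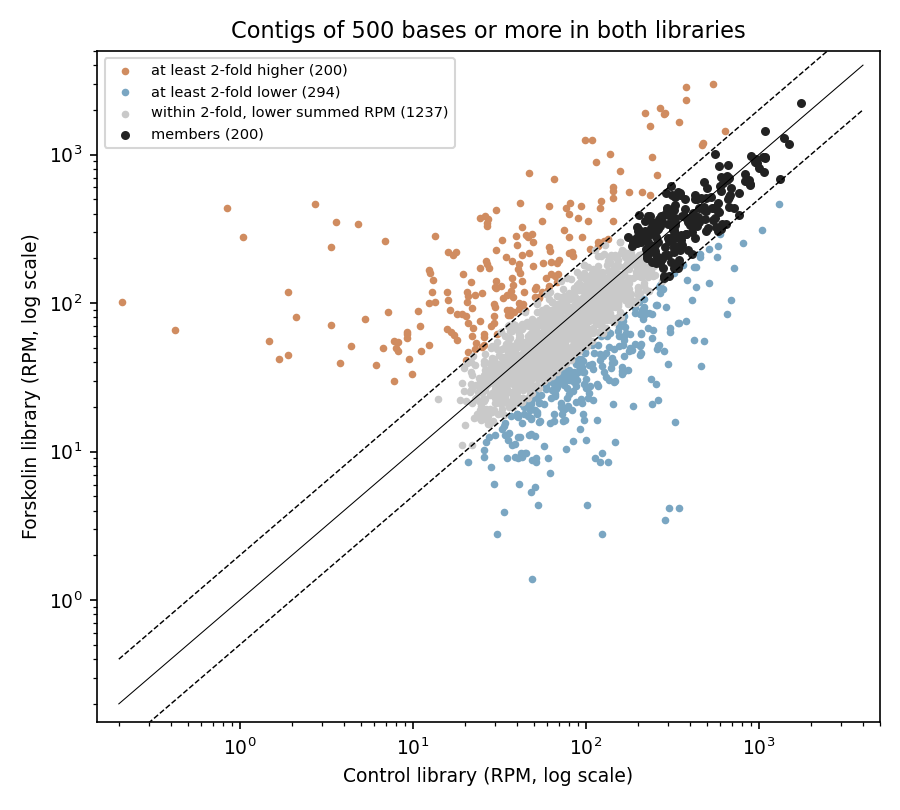
Control RPM (x axis) against forskolin RPM (y axis), both on log scales, for the 1931 contigs of 500 bases or more, 1 point each, with a solid line at equal RPM and dashed lines at 2-fold. The 200 members (black) fill the upper end of the band between the dashed lines, and the 1237 other long contigs within 2-fold (grey) lie below them in that band.

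The 10 members with the highest summed RPM differed among themselves in direction and size. The highest was cont-fors-mixed_contig_22249, of 3511 bases, with a control level of 1757 RPM (exact 95% Poisson interval 1720 to 1796) and a forskolin level of 2215 RPM (2171 to 2259). Its forskolin value was 1.26 times its control value (exact 95% interval 1.22 to 1.30). The next, cont-fors-mixed_contig_06047, was also the longest of all contigs at 5190 bases, with a control level of 1400 RPM and a forskolin level of 1291 RPM, a ratio of 0.922 (0.890 to 0.956). With library totals these 2 contigs thus lay on opposite sides of equality, the first higher and the second slightly lower with forskolin. With TMM factors both lay above equality, at 1.45 and 1.06, so the side of the second depended on the scaling.

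The third, cont-fors-mixed_contig_23359, of 1289 bases, had a control level of 1487 RPM and a forskolin level of 1179 RPM, a ratio of 0.793 (0.765 to 0.822). In contrast, cont-fors-mixed_contig_00900, of 772 bases, had a control level of 1083 RPM and a forskolin level of 1443 RPM, a ratio of 1.33 (1.28 to 1.38). The largest gap among the 10 was that of cont-fors-mixed_contig_11365, of 1559 bases, at a control level of 1318 RPM and a forskolin level of 688 RPM. Its ratio of 0.522 had an interval of 0.499 to 0.545, which reached past the lower edge of the window, so its membership is not settled at this depth.

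A group of 3 contigs had nearly the same pair of values. They were cont-fors-mixed_contig_05175 (3336 bases), with 1079 RPM in the control and 959 RPM in the forskolin library, cont-fors-mixed_contig_05296 (1574 bases), with 1080 and 946 RPM, and cont-fors-mixed_contig_01449 (2025 bases), with 1060 and 956 RPM. Their ratios were 0.889 (0.853 to 0.926), 0.876 (0.841 to 0.913) and 0.902 (0.865 to 0.940), and these intervals overlapped. With library totals, the other 2 of the 10 were also near equality, the first of them the nearest of the 10. Contig cont-fors-mixed_contig_24294, of 2331 bases, had a control level of 964 RPM and a forskolin level of 934 RPM, a ratio of 0.968 (0.928 to 1.01). Contig cont-fors-mixed_contig_21794, of 623 bases, had 899 and 977 RPM, a ratio of 1.09 (1.04 to 1.13). In all, with library totals, 3 of the 10 had the higher value with forskolin and 7 the lower. With TMM factors the ratios of the group of 3 were 1.02, 1.01 and 1.04, above equality. The split of the 10 thus depended on the scaling. Together the 10 held 13.9% of the members' control reads and 14.0% of their forskolin reads.

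**Figure D2:**
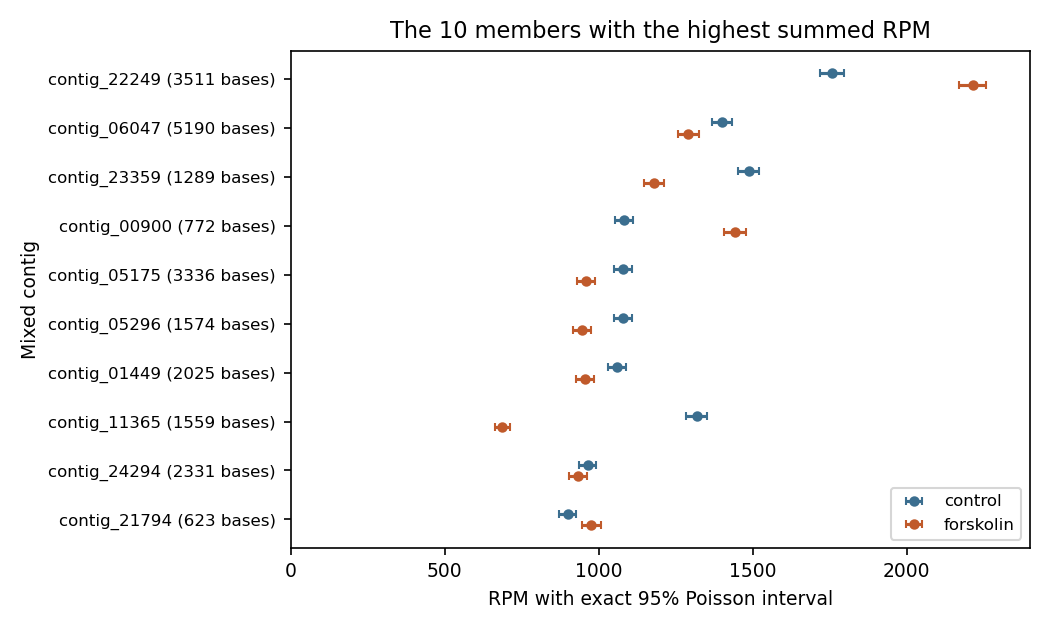
RPM (x axis, from 0) in the control library (blue) and the forskolin library (orange) for the 10 members with the highest summed RPM, with exact 95% Poisson intervals as bars. The widest gap is that of contig_11365, at 1318 against 688 RPM, and for contig_24294 the intervals of the libraries overlap.

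Over all 200 members, levels ran from 175 to 1757 RPM in the control library, with a median of 341, and from 147 to 2215 RPM in the forskolin library, with a median of 340. The reads were spread over many members: it took the 58 members with the most control reads to reach 50% of the members' control reads, and 60 members in the forskolin library. Every member was among the 1000 contigs with the most reads in each library, with a lowest rank of 720 in the control and 920 in the forskolin library. Of the 100 contigs with the most reads, 44 of the control library were members and 29 of the forskolin library. Such ranks depend on the rule, which takes the highest summed RPM and leaves out contigs past 2-fold. Among long contigs as abundant as the members, the higher ones left out held 0.786% of control and 4.06% of forskolin reads. The lower ones left out held 1.34% and 0.42%. The smaller count in the forskolin library thus does not by itself show that members lost rank with forskolin. The order of the members was only partly shared, with 7 contigs among the top 10 in both libraries and 35 among the top 50 in both. Across the 200 members the Spearman correlation of control and forskolin RPM was 0.70, a description of contigs chosen to lie within 2-fold.

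Inside the 2-fold window the members were not uniformly near equality. The log2 ratio had a median of -0.08 and quartiles at -0.39 and 0.33, against medians of -0.15 for all 1437 long contigs within 2-fold, -0.19 for all long contigs and -0.21 for all contigs. A ratio above 0.8 and below 1/0.8, a narrow band around equality, was found for 84 of the 200 members (42.0%), against 46.4% of the long contigs within 2-fold. With library totals, 64 members lay below the narrow band, 26 of them lower by more than 1.5-fold. Above it lay 52 members, 17 of them higher by more than 1.5-fold. TMM factors moved all ratios up and put 100 members in the narrow band, so these counts depended on the scaling. The word steady thus describes these contigs only in the sense of the 2-fold rule.

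Whether more members were higher or lower with forskolin depended on the scaling. With library totals, 85 members (42.5%) had a ratio above 1 and 115 below, against 36.7% above 1 among long contigs within 2-fold and 42.5% among all contigs. With TMM factors (a scaling by the trimmed mean of log ratios) the order turned to 122 above and 78 below, and with upper-quartile scaling to 103 above and 97 below. TMM moved all log2 ratios up by 0.20 and upper-quartile scaling by 0.11. No direction for the members as a group can be given from these libraries. The ratios here are relative to library totals.

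The spread among members was wider than counting error. The SD of their log2 ratios was 0.46, while the counting error of a single member's log2 ratio had a median SE of 0.05 and at most 0.07. The 2-fold window limits such an SD, and the choice by abundance makes the counting error small. Among the other long contigs within 2-fold the SD was 0.44, close to that of the members. The exact interval of a member's ratio spanned a median of 1.15-fold from its lower to its upper bound, and 1.21-fold at the widest. For 65 members the whole interval lay in the narrow band. For 186 it lay wholly within the 2-fold window, for 11 it reached 0.5 or below, and for 3 it reached 2 or above. Without replicates, the spread between libraries of 1 condition is unknown, so how much of the spread among members comes from it was not tested.

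**Figure D3:**
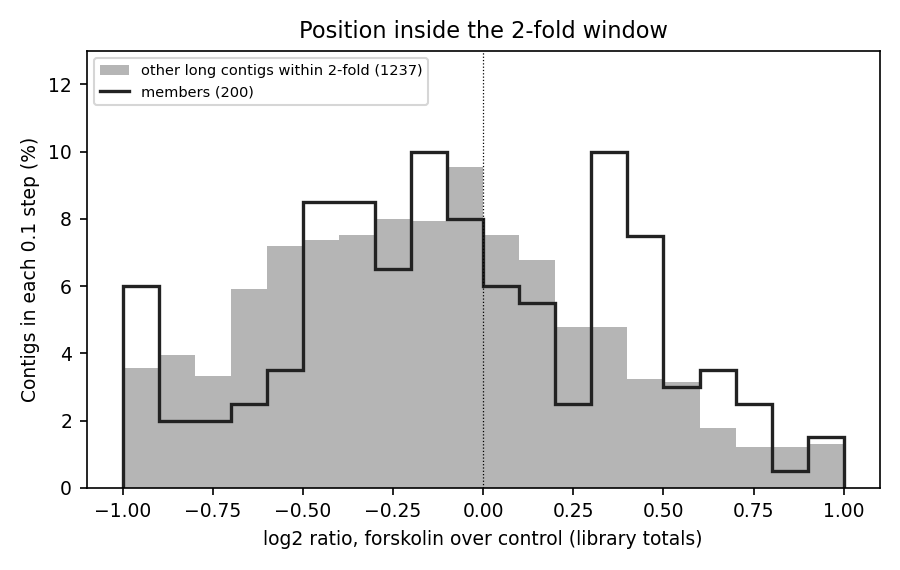
Share of contigs (y axis, %) in steps of 0.1 of the log2 ratio of forskolin over control (x axis), for the 200 members (black outline) and the 1237 other long contigs within 2-fold (grey). In these steps the members have a second rise between 0.3 and 0.5, which holds 35 members, and only 5 members lie between 0.2 and 0.3.

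The members' ratios had a second rise on the higher side. Between log2 ratios of 0.3 and 0.5 lay 35 members (17.5%), against 99 of the 1237 other long contigs within 2-fold (8.0%), and only 5 members (2.50%) against 59 others (4.77%) lay between 0.2 and 0.3. These limits were picked after the distribution was seen, and the counts are a description. The lowest log2 ratio of the 35 was 0.3001, almost at the limit, so the counts depend on where it was set. The 35 had a median length of 1004 bases, and cont-fors-mixed_contig_22249 and cont-fors-mixed_contig_00900 were among them. At the low end, 12 members (6.0%) lay between -1.0 and -0.9, at the edge the rule sets, against 3.56% of the others.

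With library totals, the 3 members nearest to equality were longer than the median member and not among the 100 most abundant. Contig cont-fors-mixed_contig_03114, of 1466 bases, had a control level of 227 RPM and a forskolin level of 226 RPM, a ratio of 0.995 (0.912 to 1.09). Contig cont-fors-mixed_contig_22658, of 1968 bases, had 321 and 318 RPM, a ratio of 0.989 (0.919 to 1.07), and cont-fors-mixed_contig_22602, of 1507 bases, had 262 and 257 RPM, a ratio of 0.981 (0.903 to 1.06). For these 3 contigs, counting error bounded the ratio between 0.903 and 1.09.

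The 3 members with the highest ratios were shorter than most, although the 17 members with a ratio above 1.5 had a median length of 1029 bases. The highest ratio was that of cont-fors-mixed_contig_05095, of 663 bases, at 1.96 (1.84 to 2.09). Its control level was 312 RPM and its forskolin level 613 RPM. It was followed by cont-fors-mixed_contig_22560, of 523 bases, with 204 and 390 RPM and a ratio of 1.92 (1.77 to 2.08), and by cont-fors-mixed_contig_21911, of 589 bases, with 290 and 553 RPM and a ratio of 1.91 (1.78 to 2.04). With TMM factors these 3 stood at 2.26, 2.20 and 2.19, outside the window. Just outside it with library totals were cont-fors-mixed_contig_22318, with a control level of 634 RPM and a forskolin level of 1440 RPM (ratio 2.27), and cont-fors-mixed_contig_27086, with 234 and 535 RPM (ratio 2.28). No long contig of the members' abundance had a ratio between 1.96 and 2.27. Among the less abundant long contigs within 2-fold, 6 lay above the highest member ratio, so this gap depends on the abundance limit.

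At the lower edge there was no such gap. The lowest ratio of a member was that of cont-fors-mixed_contig_00215, of 1835 bases, with a control level of 302 RPM and a forskolin level of 151 RPM, a ratio of 0.502 (0.457 to 0.551). Next came cont-fors-mixed_contig_01707, of 732 bases, with 343 and 174 RPM (ratio 0.506, 0.464 to 0.552), and cont-fors-mixed_contig_00337, of 1604 bases, with 765 and 391 RPM (ratio 0.511, 0.482 to 0.541). Just outside lay cont-fors-mixed_contig_02428, with a control level of 366 RPM and a forskolin level of 181 RPM (ratio 0.494, 0.453 to 0.538), and cont-fors-mixed_contig_01932, with 593 and 290 RPM (ratio 0.490, 0.458 to 0.524). The intervals on both sides of this edge overlapped, so counting error alone can move contigs across it. At the edge set by abundance, the last member, cont-fors-mixed_contig_03092, had 226.1 RPM in the control and 201.3 RPM in the forskolin library, and the first contig left out, cont-fors-mixed_contig_36520, had 212.2 and 214.7 RPM.

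The spread of the ratios differed between blocks of rank, within a window that had already removed contigs past 2-fold, among them 10 higher and 1 lower of the 25 most abundant long contigs. In the 50 with the highest summed RPM the interquartile range of the log2 ratio was 0.44, against 0.77, 0.72 and 0.81 in the next blocks of 50. Of these top 50, 24 lay in the narrow band and 17 had a ratio above 1. In the following blocks of 50 those counts were 20, 22 and 18 in the narrow band, and 22, 24 and 22 above 1. All these counts are with library totals. Over the 200 members, the number above 1 went from 85 to 122 with TMM factors, so the counts above 1 depend on the scaling. Summed RPM and log2 ratio had a Spearman correlation of -0.07 across the 200 members, and length and log2 ratio one of -0.10, both weak.

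The members were long even among long contigs. Their lengths ran from 503 to 5190 bases with a median of 1210.5 bases, against a median of 627 bases for the other long contigs within 2-fold, and 62.5% of the members had 1000 bases or more against 8.81% of the others. RPM is not divided by length, so a ranking by RPM favours long contigs. Across the 1437 long contigs within 2-fold, length and summed RPM had a Spearman correlation of 0.62. Long contigs past 2-fold at the same abundance had a median of 1002 bases for the 41 higher and 1208.5 bases for the 24 lower contigs.

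Per kilobase of contig, the order of the members was another. The median level was 322 RPM per kb in the control and 287 RPM per kb in the forskolin library, and the mean of both libraries ran over a 16.3-fold range. Of the 10 members with the highest summed RPM, 3 were also among the 10 highest per kilobase. The highest level per kilobase was that of cont-fors-mixed_contig_00900, at a control level of 1403 and a forskolin level of 1869 RPM per kb. After it came cont-fors-mixed_contig_21794, at 1443 and 1568 RPM per kb, and cont-fors-mixed_contig_03730, of 698 bases, at 1438 and 1155 RPM per kb. In the control library the counting intervals of these 3 contigs overlapped, so their order there is not settled, whereas in the forskolin library cont-fors-mixed_contig_00900 lay above the other two.

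The next per kilobase were cont-fors-mixed_contig_02195, of 751 bases, at a control level of 742 and a forskolin level of 1334 RPM per kb, and cont-fors-mixed_contig_23359, at 1154 and 915 RPM per kb. Their means over both libraries were 1038 and 1034 RPM per kb, and the member after them had 1032. Counting error alone can change the order of these members. The ratio of cont-fors-mixed_contig_02195 was 1.80 (1.71 to 1.89), and 2.07 with TMM factors, which makes it the last of the 4 members that TMM moved out of the window. The longest member, cont-fors-mixed_contig_06047, was second by summed RPM but 120th of 200 per kilobase, at 270 and 249 RPM per kb. The first by summed RPM, cont-fors-mixed_contig_22249, was 35th per kilobase, at 501 and 631 RPM per kb. Reads of 1 transcript can be divided over several contigs, so a level per kilobase describes the contig and not a gene.

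**Figure D4:**
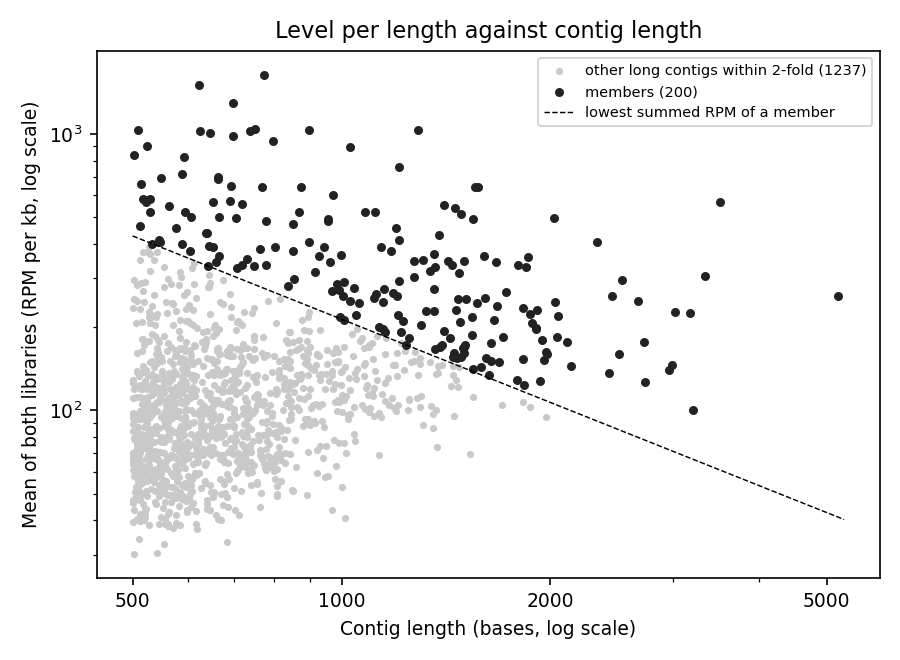
Mean of both libraries in RPM per kb (y axis, log scale) against contig length in bases (x axis, log scale) for the 200 members (black) and the 1237 other long contigs within 2-fold (grey), with a dashed line at the lowest summed RPM of a member. The line falls with length, so that longer contigs enter at a lower level per kilobase, and the 5190-base contig is at 259 RPM per kb.

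Grouped by length, the members had median ratios from 0.900 to 0.999. The median ratio was 0.944 in the 47 members under 750 bases, 0.900 in the 28 of 750 to 999 bases, 0.945 in the 61 of 1000 to 1499 bases, 0.921 in the 42 of 1500 to 1999 bases and 0.999 in the 22 of 2000 bases or more. Those 22 had the narrowest range, from 0.666 to 1.42, but were also the smallest group, and such a range depends on the number of contigs. In the narrow band lay 12 of the 22, against 19 of 47, 10 of 28, 23 of 61 and 20 of 42 in the shorter groups.

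Nearly all members were of the class named as mixed, which the rule did not use. Mixed contigs made up 199 of the 200 members (99.5%), 98.1% of all long contigs and 41.0% of all contigs, so the share among members was close to that among all long contigs. The exception was cont-singlet_contig_004642, a control singlet of 1339 bases, with a control level of 491 RPM (471 to 511) and a forskolin level of 367 RPM (349 to 386). Its ratio was 0.748 (0.701 to 0.797), so a contig named for the control library held a large number of forskolin reads. No forskolin singlet was a member. Of the long contigs past 2-fold at the same abundance, 2 of the 41 higher were forskolin singlets, and all 24 lower ones were mixed.

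The numbers in the mixed members' names were not spread evenly. Of the 199 mixed members, 82 (41.2%) had numbers from 1 to 5000 and 57 (28.6%) from 20001 to 25000, although each of these ranges holds 12.5% of all mixed contigs. The ranges from 15001 to 20000 and from 35001 to 40000 had 3 members each (1.51%), and that from 30001 to 35000 had 4 (2.01%). Of the long mixed contigs within 2-fold, 31.7% had numbers from 1 to 5000, 17.6% from 5001 to 10000 and 15.9% from 20001 to 25000, while the members had 13.1% from 5001 to 10000. In the range from 21001 to 24000, picked after the pattern was seen, 50 of 166 long mixed contigs within 2-fold (30.1%) were members, against 13.9% over all numbers (199 of 1432). The share was 20.3% from 1 to 3000, 10.5% from 3001 to 14000, 3.60% from 14001 to 21000 and 8.43% from 24001 to 40013. The members numbered 21001 to 24000 had a median length of 1002 bases and a median level of 457 RPM per kb. Those numbered 1 to 3000 had 1225 bases and 324 RPM per kb. Under a choice by summed RPM, shorter contigs enter only at a higher level per kilobase. Among all long mixed contigs within 2-fold in these ranges, the median levels were 144.7 and 127.4 RPM per kb. The median ratios of the members in these ranges were 0.966 and 0.898. The way in which contigs were numbered was not given in the sources used here.

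**Figure D5:**
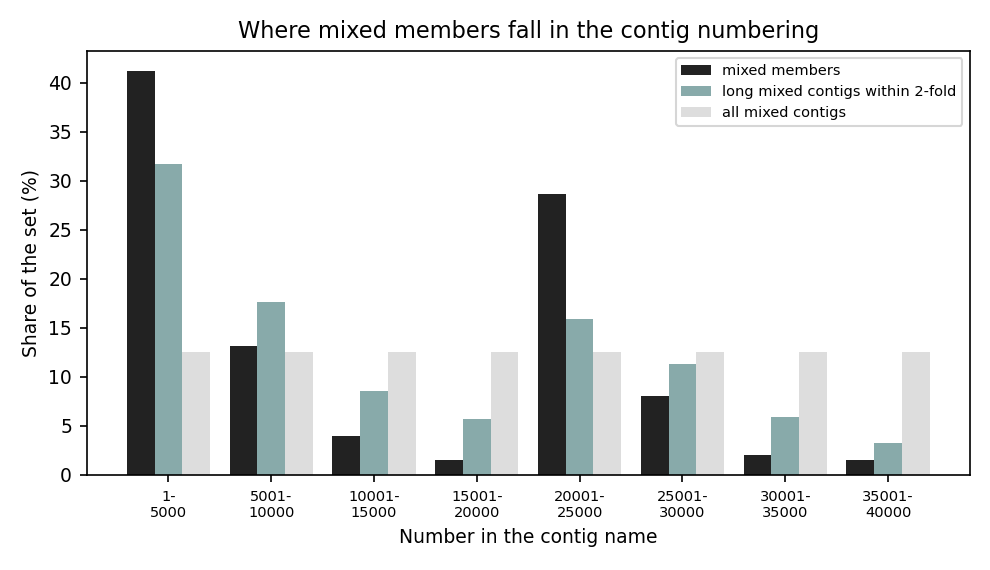
Share of each set (y axis, %) by the number in the contig name in steps of 5000 (x axis), for the mixed members (black), long mixed contigs within 2-fold (teal) and all mixed contigs (light grey). The members' bars stand highest at 1 to 5000 (41.2%) and at 20001 to 25000 (28.6%), whereas all mixed contigs have 12.5% in each step.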

How the data were processed

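RNA of masu salmon granulosa layers was sequenced in 2 libraries (control and forskolin), made with an Illumina mRNA kit per the labels' protocols. CASAVA and Bowtie are named in the submitters' processing notes. The assembler, the read filters and what was done with multiply matching reads were not given in the sources used here. Per the file headers, the authors deposited for each contig a length, a read count and an RPM value. The deposited counts were whole numbers, and the deposited RPM values differed by at most 0.005 from count over library total. Of 97645 contigs, 9 without a value were left out.

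The ratio was forskolin over control, each count plus 0.5 over its library total. Members were all contigs of at least 500 bases with a ratio above 0.5 and below 2, ranked by summed RPM, first 200. Ratio intervals are exact conditional binomial, RPM intervals exact Poisson and share intervals exact binomial (Clopper-Pearson), all at 95%. With 1 library per group no test was made. The members, the lists and the alternatives were chosen with earlier results of these data known. Contigs named are the 10 highest in summed RPM, the 5 highest per kilobase, the 3 longest, up to 3 of each singlet class, the 3 highest, lowest and nearest to 1 in ratio, and those next to each limit. Scaling, pseudocount, minimum length, window, number of members, ranking and class were varied. The intervals and the choice of members were tried on simulated Poisson counts, with the changed contigs set well outside the window. This could not show how the choice works near the limits, or with variation between libraries, since neither was simulated. TMM and upper-quartile factors came from edgeR 4.0.16 in R 4.3.3, and all else from Python 3.11.15 with scipy 1.17.1, pandas 2.3.3, numpy 2.4.6 and matplotlib 3.10.9.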

Additional observations from a re-analysis of the deposited data

How the results depend on the processing

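The median log2 ratio of the members, -0.08, turned to 0.12 with TMM factors, to 0.028 with upper-quartile scaling and to 0.076 where TMM factors were used in the choice itself, which shifts every ratio by construction. Ranking by control RPM alone gave -0.17. The members took 8.72% of control and 8.28% of forskolin reads. These shares became 8.82% and 8.11% with TMM factors in the choice, 9.73% and 9.33% from 300 bases, 7.09% and 6.46% from 1000 bases, 7.85% and 7.58% with ratios between 2/3 and 1.5, 9.38% and 11.1% with no limit on the ratio, 7.91% and 7.57% with ranking per kilobase, and 8.78% and 8.09% with ranking by control RPM. Mixed contigs alone gave 8.70% of control reads. The median length, 1210.5 bases, became 959 from 300 bases, 1365 from 1000 bases and 734.5 with ranking per kilobase. The median levels, 322 RPM per kb in the control and 287 in the forskolin library, became 473 and 445 from 300 bases and 181 and 176 from 1000 bases, and the forskolin level 367 with no limit on the ratio. With no limit the interquartile range of the log2 ratio was 0.89 against 0.72. Taking 100 members gave 39 contigs above a ratio of 1, 44 between 0.8 and 1/0.8, 99 mixed, 6.01% and 5.63% of reads, and 426 and 387 RPM per kb. Taking 400 gave 166, 178 and 398, 12.0% and 11.4% of reads, a median of 1000 bases, and 219 and 212 RPM per kb. These follow from the number of contigs taken. The number above a ratio of 1, 85, was 122 with TMM factors, 103 with upper-quartile scaling and 116 with TMM factors in the choice, and the number between 0.8 and 1/0.8, 84, was 100 with TMM factors, 66 with no limit on the ratio and 111 with ratios between 2/3 and 1.5.

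The choice of contigs was shared unequally. TMM factors in the choice left 194 of the 200 members, ranking by control RPM 185, the narrower window 157, the minimum of 300 bases 151, no limit on the ratio 150, ranking per kilobase 140 and the minimum of 1000 bases 125. No paired analysis was possible because there was 1 library per group. Each member had at least 636 reads in both libraries, yet at this depth the ratio intervals of 14 members reached past 0.5 or 2.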
